A study of Mus musculus with 17 samples.

Results

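The 10 genes described here belong to the NRF2 antioxidant response and were chosen by name. The rule used no measured value, but earlier results of these data were known when the list was made. The genes are the regulators Nfe2l2 and Keap1 and the response genes Nqo1, Hmox1, Gclc, Gclm, Slc7a11, Txnrd1, Srxn1 and Osgin1. They are 10 of the 35971 genes obtained by summing transcripts, and all 10 passed the filter on low counts with 17011 genes in all. Expression was measured by RNA-seq of whole kidneys from 17 mice in 5 groups, 1 library per mouse. Every mouse carried lsl-PRCC-TFE3, a knock-in at Rosa26 of the fusion gene of TFE3-rearranged renal cell carcinoma that stays silent until Cre removes a stop cassette.

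In the KI group (n = 3) the cassette was opened by Ksp-Cre, a Cre transgene under the Cadherin 16 promoter, which is active in kidney epithelium and not in the other cells of the organ. The Hif1a KO (n = 4), Hif2a KO (n = 3) and DKO (n = 3) groups carried the knock-in and Ksp-Cre together with floxed alleles of Hif1a, of Hif2a (Epas1) or of both. Cre(-) mice (n = 4) lacked the Cre, and replicates 1 and 2 of that group were Hif1a f/f while replicates 3 and 4 had no floxed Hif allele. Kidneys were taken at 8 months of age, and no label gives the sex. The Y-linked genes Ddx3y and Eif2s3y reached at most 0.186 and 0.166 TPM (a scale defined below) in any of the 17 libraries. Library totals ran from 16504419 to 24668827 estimated counts, so that 3 counts corresponded to 0.122 to 0.182 CPM (counts scaled to library size). Library numbers largely followed the groups, so a difference in handling order and a difference between genotypes cannot be told apart.

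NRF2, the product of Nfe2l2, is a transcription factor that KEAP1, an adaptor of the CUL3 ubiquitin ligase, marks for degradation in unstressed cells. Oxidants and electrophiles modify KEAP1, NRF2 then accumulates, pairs with a small MAF protein and binds antioxidant response elements in genes for glutathione synthesis, thioredoxin reduction and quinone detoxification. Because this control acts on the protein, the level of Nfe2l2 mRNA and the activity of the pathway need not move together. In the kidney the pathway is known for protecting the tubule against toxic and ischaemic injury.

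The upstream 250 bases of RefSeq start sites (GRCm38.p6) were available for 8 of the 10 genes, with 3 starts for Txnrd1, and not for Gclc or Hmox1. Capitals mark the antioxidant response element core, the TPA response element, the amino acid response element and the M-box wherever they occur on either strand. The 4 sequences shown are examples. Gclm, Osgin1 and Srxn1 passed the test below in at least 1 comparison between Hif genotypes, and the transcript form of Slc7a11 differs. Nfe2l2 and Txnrd1 also passed in such a comparison and are not shown. The windows of Osgin1 and Srxn1 run at their 3′ ends into exons of the GENCODE annotation.
Gclm, chr3:122245307-122245556, plus strand: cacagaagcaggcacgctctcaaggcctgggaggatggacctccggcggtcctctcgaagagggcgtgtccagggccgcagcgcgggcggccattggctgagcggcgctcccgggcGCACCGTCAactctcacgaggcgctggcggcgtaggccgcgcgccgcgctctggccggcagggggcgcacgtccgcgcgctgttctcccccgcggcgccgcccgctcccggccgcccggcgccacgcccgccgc
Osgin1, chr8:119436897-119437146, plus strand: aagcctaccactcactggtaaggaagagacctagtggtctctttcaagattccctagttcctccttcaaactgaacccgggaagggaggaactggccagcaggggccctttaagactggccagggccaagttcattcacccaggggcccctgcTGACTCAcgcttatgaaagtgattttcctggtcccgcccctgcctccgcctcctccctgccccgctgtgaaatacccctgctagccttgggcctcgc
Srxn1, chr2:152105274-152105523, plus strand: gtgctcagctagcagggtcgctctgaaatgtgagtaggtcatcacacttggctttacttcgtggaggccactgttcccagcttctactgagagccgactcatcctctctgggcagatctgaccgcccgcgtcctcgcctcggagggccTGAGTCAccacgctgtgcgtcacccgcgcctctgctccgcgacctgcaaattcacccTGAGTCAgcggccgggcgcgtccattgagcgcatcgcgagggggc
Slc7a11, chr3:50443614-50443863, minus strand: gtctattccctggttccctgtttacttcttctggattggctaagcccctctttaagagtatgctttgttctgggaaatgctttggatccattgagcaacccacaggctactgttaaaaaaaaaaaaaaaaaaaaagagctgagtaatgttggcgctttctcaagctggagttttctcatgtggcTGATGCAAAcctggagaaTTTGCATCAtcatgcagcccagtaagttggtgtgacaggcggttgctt
The capitals in Gclm mark the antioxidant response element core TGACNNNGC read on the opposite strand, which was present in 3 of the 10 member promoters (Gclm, Nfe2l2 and 1 start of Txnrd1) and in 10.2% of all 32851 promoters of that length. The capitals in Osgin1 and Srxn1 mark TGAGTCA, the TPA response element bound by AP-1 factors, and Srxn1 held 2 copies. That element was found in 4.5% of all promoters. The Osgin1 site, read on the opposite strand, and the Srxn1 copy nearer the start continue with GC. Forms of the antioxidant response element other than TGACNNNGC were not searched, so its absence from these promoters is not shown. Slc7a11 carried TGATGCAAA, the amino acid response element read by ATF4, once on each strand, beginning 66 and 48 bases upstream of the start, against 0.2% of all promoters with any copy. The M-box letters recognised by the MiT/TFE family (TCACATGA, TCACGTGA, TCATATGA or TCATGTGA) matched in none of the 10 member promoters and in 1.9% of all promoters, and the CLEAR-type E-box CACGTG matched in 0 of 10 and in 6.0%. The hypoxia response core (ACGTG or GCGTG) matched in 7 of the 10 member promoters and in 38.6% of all promoters. The 7 were those of Gclm, Keap1, Osgin1 and Srxn1 and all 3 starts of Txnrd1, so they stand for fewer genes than promoters. A match describes these letters only and shows no binding.

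Markers set the cellular background of every comparison. Gpnmb, a well known target of TFE3 fusions, was at 0.326 to 1.47 TPM (scaled for transcript length and library size) in Cre(-) kidneys, 11100 to 12200 TPM in KI, 2290 to 6390 TPM in Hif1a KO, 4170 to 9460 TPM in Hif2a KO and 2460 to 5060 TPM in DKO kidneys. Gene totals of Hif1a (51.3 to 67.5 TPM in Hif1a KO, 58.5 to 81.1 TPM in KI) and Epas1 (40.4 to 44.0 TPM in Hif2a KO, 46.7 to 55.1 TPM in KI) did not fall to low levels in the knockouts, and such totals over a whole organ do not check the state of a floxed exon in epithelium. The summed level of 10 proximal tubule markers was 6330 to 7030 TPM in Cre(-), 616 to 755 TPM in KI, 1010 to 1900 TPM in Hif1a KO, 804 to 1620 TPM in Hif2a KO and 1140 to 1840 TPM in DKO. The 10 macrophage markers summed to 101 to 124 TPM in Cre(-) and 428 to 899 TPM over the 4 groups with Cre. Of the other marker lists, 4 of 4 podocyte markers, 4 of 4 of the thick ascending limb and distal tubule, 4 of 5 of the collecting duct (the other, Aqp3, was called higher, and the list summed to 288 to 347 TPM in KI and 247 to 323 TPM in Cre(-)) and 2 of 4 of endothelium were called lower in KI than in Cre(-). Of 4 markers of the kidney epithelial lineage 2 were called higher and 1 lower, while 4 of 4 fibroblast, 3 of 5 lymphocyte and 2 of 4 adipocyte markers were called higher and 0 of 3 erythroid markers were called by edgeR, 2 of them with an unadjusted p below 0.05. In bulk kidney, fewer cells of a type and less RNA per cell cannot be told apart. The paper reports tumours in KI kidneys, reduced tumour development in Hif1a KO and DKO kidneys, and no inhibition in Hif2a KO kidneys. Tumour content of the sequenced kidneys is not given by the labels, and its part in the gene levels was not tested.

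In TPM, a unit that allows comparison between genes, Gclm (246 ± 23.8 TPM, SD, n = 4) and Gclc (136 ± 19.1) stood highest of the 10 genes in Cre(-) kidneys. Nfe2l2 (68.4 ± 5.67), Txnrd1 (55.7 ± 6.40), Osgin1 (48.9 ± 14.2), Nqo1 (36.9 ± 12.6) and Srxn1 (33.1 ± 4.18) followed, and from Nfe2l2 to Srxn1 each gene's range overlapped that of the next in the order. Keap1 (18.4 ± 1.19), Hmox1 (13.9 ± 1.97) and Slc7a11 (1.52 ± 0.453 TPM) were lower, with no overlap between them. In the Hif1a KO group Gclc stood at the head of the order at 495 ± 94.0 TPM, above Gclm at 345 ± 42.9 TPM (n = 4). The order of Gclm and Gclc depends on the unit. In CPM, which is not scaled for transcript length, Gclc was already above Gclm in Cre(-) on average, at 414 ± 65.9 against 325 ± 20.3 CPM. The Gclm TPM in Cre(-) was spread over several transcripts, with 43.6% on Gclm-203, 19.5% on the retained-intron Gclm-205 and 12.7% on Gclm-201 on average. Gclc-201 held 99.4% of the Gclc TPM.

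**Figure D1:**
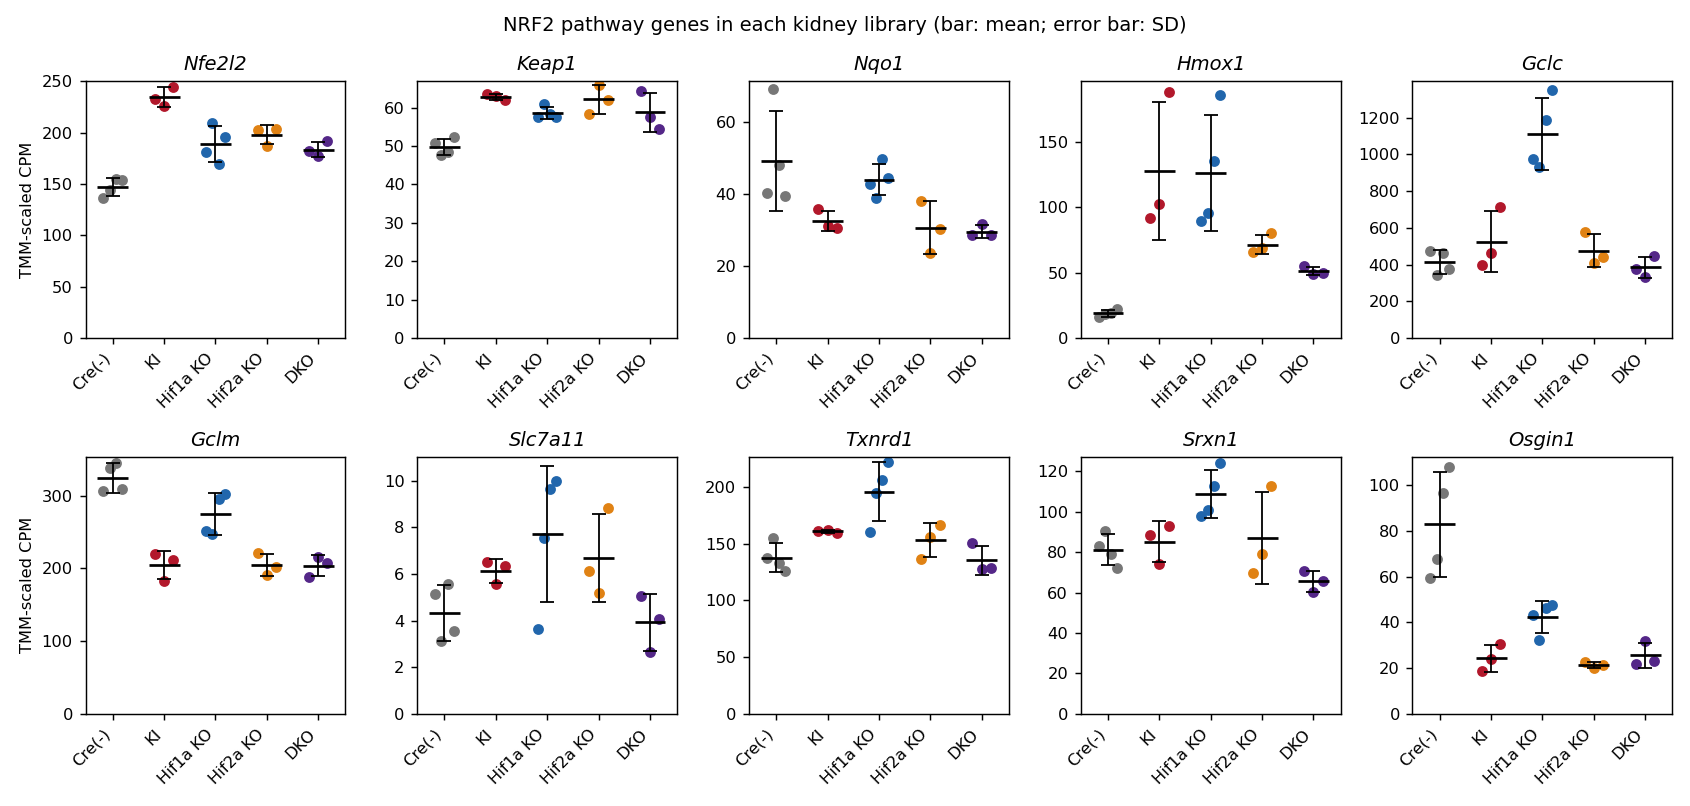
Each panel plots 1 gene, with the level in CPM scaled by the trimmed mean of M-values (TMM) on the vertical axis from 0 and the 5 groups on the horizontal axis; points are libraries, long bars group means and error bars the SD. The 4 Hif1a KO points of Gclc lie between 932 and 1348 CPM, above all 13 other libraries, and the 13 libraries with Cre all lie above the 4 Cre(-) libraries for Nfe2l2, Keap1 and Hmox1. The share of all genes with either pattern was not counted. Taken singly, the groups with Cre lay wholly above Cre(-) in 28.8% to 30.9% of all genes tested.

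The comparison of KI with Cre(-) sets kidneys with the opened fusion beside kidneys without it. The groups also differ by Ksp-Cre itself. No group carried Ksp-Cre without the knock-in, so the part of each cannot be told apart. On the TMM scale Nfe2l2, Keap1 and Hmox1 rose, Nqo1, Gclm and Osgin1 fell, and the other 4 did not pass the test. The counts of 3 higher and 3 lower among 10 stand against 31.6% and 29.3% of all 17011 genes called higher and lower in this comparison, so the share of members called was close to that of the whole table. In 4 members (Nfe2l2, Keap1, Hmox1 and Txnrd1) every KI library lay above every Cre(-) library, and in 3 (Nqo1, Gclm and Osgin1) every one lay below, against 28.9% and 27.7% of all genes. The scale matters here. Mitochondrial transcripts took 19.1% to 23.1% of the counts in Cre(-) libraries and 8.3% to 12.4% in the rest, and without TMM the median of all genes moved up by 0.35 on the log2 scale, while log2(TPM + 1) moved it by 0.43. The share of calls that were higher was 51.9% on the TMM scale, 74.1% on library size alone and 78.2% on log2(TPM + 1), and the members called became 7 higher and 2 lower, and 6 higher and 1 lower.

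**Figure D2:**
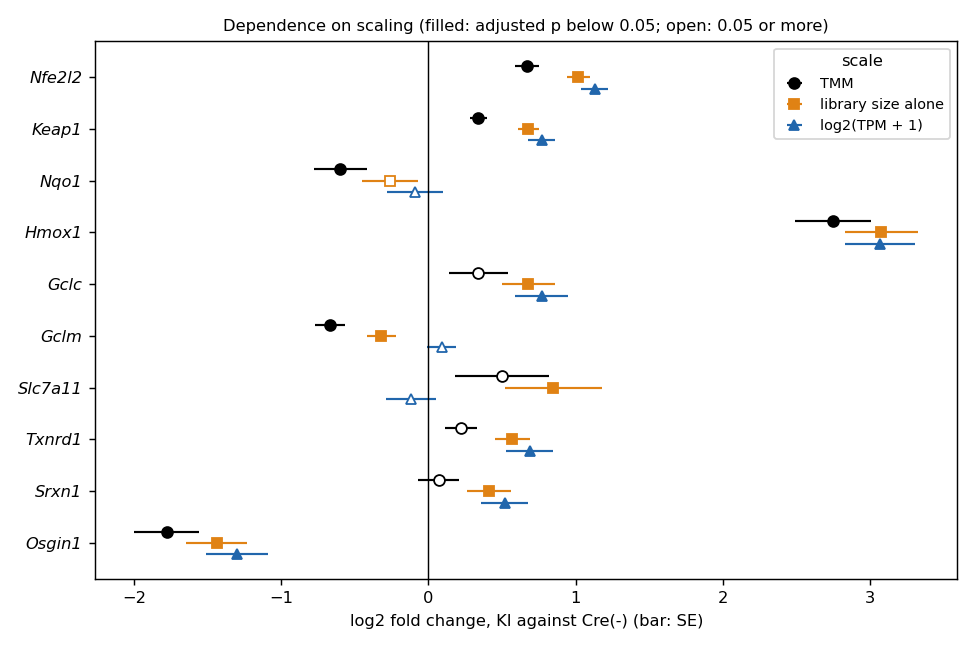
Log2 fold change of KI over Cre(-) for each gene on the horizontal axis, with its SE as a bar, under 3 scales (TMM, library size alone and log2(TPM + 1)); filled symbols have an adjusted p below 0.05. Nfe2l2, Keap1 and Hmox1 lie above 0 and Osgin1 below 0, all filled, on every scale, whereas Gclm moves from -0.67 with TMM to 0.09 on log2(TPM + 1).

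Among the regulators, Nfe2l2 was at 136, 144, 155 and 153 CPM in Cre(-) and at 233, 226 and 245 CPM in KI kidneys. The groups did not overlap, with a log2 fold change of 0.67 (SE 0.08, edgeR adjusted p = 2.32e-06). Keap1 went from 47.8 to 52.2 CPM in Cre(-) to 62.0 to 63.5 CPM in KI, a log2 fold change of 0.34 (SE 0.06, edgeR adjusted p = 0.000271). Nfe2l2 reads came almost wholly from the coding transcript Nfe2l2-201, at 94.0% to 96.8% of its TPM in Cre(-) and 94.1% to 95.9% in KI.

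Hmox1 encodes haem oxygenase 1, which breaks haem down to biliverdin, iron and carbon monoxide, and is also abundant in macrophages that clear red cells. It was at 15.8, 18.5, 19.1 and 22.1 CPM in Cre(-) and at 92.0, 103 and 188 CPM in KI, with the highest value in KI replicate 3. The log2 fold change was 2.75 (SE 0.26, edgeR adjusted p = 2.85e-07), or 6.75-fold, the largest of the 10 genes on the TMM scale. All 10 macrophage markers were measured, 9 of them were called higher in the same comparison, and their sum was 101 to 124 TPM in Cre(-) and 428 to 611 TPM in KI. In KI replicate 3 the macrophage sum was the lowest of the 3 KI libraries (428 TPM) and 3 erythroid markers summed to 634 TPM, against 35.5 and 46.2 TPM in the other two and 454 to 1070 TPM in Cre(-), where Hmox1 was lowest. The part of either cell type in the Hmox1 level was not tested.

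Nqo1, the quinone reductase often used as a readout of NRF2, had 40.2, 69.1, 48.0 and 39.4 CPM in Cre(-) and 35.7, 31.2 and 30.5 CPM in KI. It was called lower on the TMM scale with a log2 fold change of -0.60 (SE 0.18, edgeR adjusted p = 0.00977) and did not pass on library size alone or on log2(TPM + 1). In TPM the groups overlapped, at 28.0 to 54.9 in Cre(-) and 29.3 to 37.8 in KI. Osgin1, an oxidative stress induced growth inhibitor, fell on all scales tried. It was at 59.5 and 67.7 CPM in the Cre(-) mice with the floxed Hif1a allele, at 96.7 and 108 CPM in those without it, and at 18.6, 23.8 and 30.4 CPM in KI, with a log2 fold change of -1.78 (SE 0.22, edgeR adjusted p = 5.49e-06). Against the Cre(-) mice with the floxed allele alone it was -1.39, and against those without it -2.07. All 10 proximal tubule markers fell in the same comparison, with a median log2 fold change of -4.31; whether the level of Osgin1 follows that of the tubule was not tested.

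Of the glutathione genes, Gclm was called on the TMM scale and Gclc and Slc7a11 were not. Gclc and Gclm encode the catalytic and modifier subunits of glutamate-cysteine ligase, the first step of glutathione synthesis. Gclm had 306, 339, 345 and 309 CPM in Cre(-) and 220, 183 and 211 CPM in KI, and was called lower on the TMM scale (log2 fold change -0.67, SE 0.10, edgeR adjusted p = 2.36e-05), while on log2(TPM + 1) it was 0.09 with a limma adjusted p of 0.44. Gclc had 341 to 476 CPM in Cre(-) and 399, 462 and 711 CPM in KI, which overlap (log2 fold change 0.34, SE 0.20, edgeR adjusted p = 0.149). Its TPM ranges, 118 to 154 in Cre(-) and 187 to 302 in KI, did not overlap. On log2(TPM + 1) Gclc was called higher, at 0.77 with a limma adjusted p of 0.00149.

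Slc7a11 encodes the transport subunit of the cystine-glutamate exchanger, which imports cystine, reduced in the cell to the cysteine of glutathione. Its gene total was not called on the TMM scale, at 3.11 to 5.56 CPM in Cre(-) and 5.55 to 6.50 CPM in KI (log2 fold change 0.50, SE 0.32, edgeR adjusted p = 0.19, and -0.12 on log2(TPM + 1)). It was called higher on library size alone. Its log2 fold change ran from -0.18 to 0.85 over the alternatives, so its call depends on the scale. The transcripts behind the total differed. The coding transcript Slc7a11-201 held 5.1, 2.8, 2.4 and 8.7 estimated counts in Cre(-) and 96.5, 87.0 and 95.9 in KI. The retained-intron transcript Slc7a11-202 held 46.6 to 80.4 estimated counts in Cre(-) and 14.6 to 16.2 in KI. The coding transcript thus made up 2.6% of the gene's TPM in Cre(-) on average and 66.8% in KI. Its mean was 0.035 ± 0.021 TPM in Cre(-) and 0.866 ± 0.076 TPM in KI. In Hif1a KO it was at 1.05 ± 0.481 TPM, in Hif2a KO at 0.912 ± 0.333 TPM and in DKO at 0.403 ± 0.245 TPM. These transcripts were singled out after their values were seen, so no test is given, and the split between them is an estimate made from single-end reads.

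**Figure D3:**
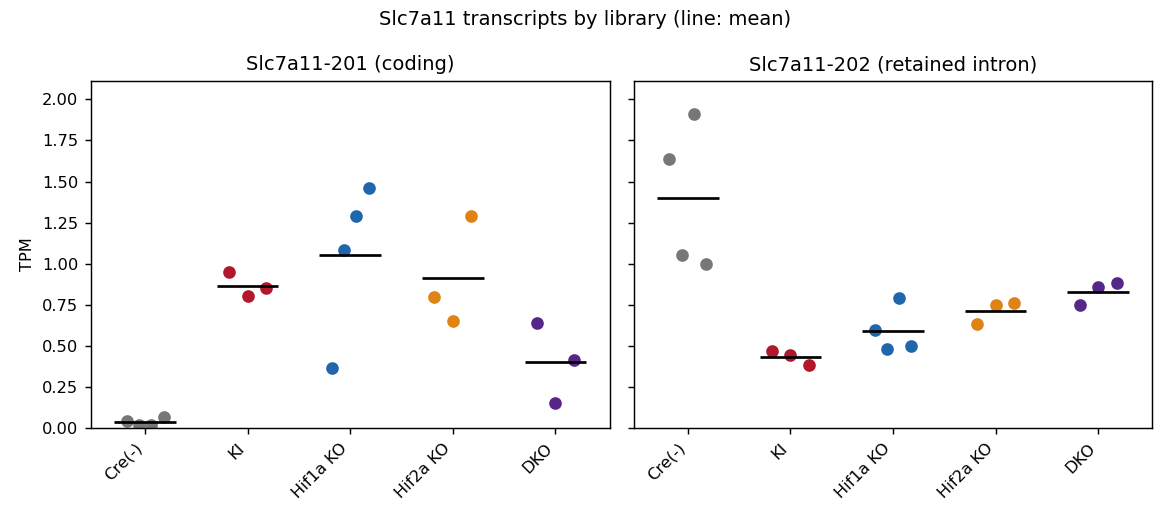
TPM of the coding (left) and the retained-intron (right) transcript of Slc7a11 in each library, by group, with the group mean as a line. The coding form lies at 0.019 to 0.063 TPM in the 4 Cre(-) libraries and at 0.152 TPM or more in the 13 libraries with Cre, and the retained-intron form is highest in Cre(-).

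In the thioredoxin branch, Txnrd1 encodes the cytosolic thioredoxin reductase and Srxn1 sulfiredoxin, which repairs overoxidised peroxiredoxins. Txnrd1 had 126 to 156 CPM in Cre(-) and 159, 163 and 161 CPM in KI, without overlap but short of the threshold (log2 fold change 0.22, SE 0.11, edgeR adjusted p = 0.0839). Srxn1 overlapped at 72.3 to 90.5 CPM and 74.0 to 93.2 CPM (log2 fold change 0.07, edgeR adjusted p = 0.686). Both were called higher on library size alone and on log2(TPM + 1), so their call depends on the scale.

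Hif1a KO kidneys were compared with KI kidneys, both with the fusion. HIF1a is a transcription factor of the hypoxia response. Because the paper reports less tumour development in Hif1a KO than in KI, the groups may also differ in tumour content. The part of tumour content in the differences below was not tested. Gclc, Gclm and Osgin1 rose and Nfe2l2 fell in Hif1a KO kidneys. The 3 higher and 1 lower of 10 stand against 2.57% of all genes called higher and 2.86% called lower. The 5 members Nqo1, Gclc, Gclm, Srxn1 and Osgin1 had every Hif1a KO library above every KI library, and Nfe2l2 and Keap1 had every one below, against 8.96% and 10.3% of all genes tested. Different scales moved the all-gene median here by at most 0.03 on the log2 scale.

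Gclc rose most, from 399, 462 and 711 CPM in KI to 974, 932, 1189 and 1348 CPM in Hif1a KO. The log2 fold change was 1.08 (SE 0.20, 95% interval 0.65 to 1.52, edgeR adjusted p = 0.0111), or 2.12-fold, and it passed the threshold in 7 of 7 fits that left out a library. Gclm, its partner subunit, went from 183 to 220 CPM to 247 to 303 CPM (log2 fold change 0.42, SE 0.10, edgeR adjusted p = 0.0227). Osgin1 went from 18.6, 23.8 and 30.4 CPM to 43.2, 32.1, 46.4 and 47.5 CPM, still below all 4 Cre(-) values (log2 fold change 0.80, SE 0.22, edgeR adjusted p = 0.0434). Nfe2l2 fell from 226 to 245 CPM to 169 to 210 CPM, a log2 fold change of -0.31 (SE 0.08, edgeR adjusted p = 0.0321). Nfe2l2 mRNA thus moved in the opposite direction to the 3 response genes called. Leaving out a library took Gclm past the threshold in 5 of 7 fits, and Osgin1 and Nfe2l2 in 2 of 7 each. A fit of the 7 libraries of the 2 groups alone called none of the 10, with Gclc at an adjusted p of 0.0565.

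Nqo1 had 42.9, 39.0, 49.6 and 44.4 CPM in Hif1a KO, above the 30.5 to 35.7 CPM of KI, but with an edgeR adjusted p of 0.169 (log2 fold change 0.44, SE 0.18). Srxn1 had 98.0 to 124 CPM against 74.0 to 93.2 CPM (log2 fold change 0.35, SE 0.14, edgeR adjusted p = 0.163) and Txnrd1 161 to 222 CPM against 159 to 163 CPM (log2 fold change 0.28, SE 0.11, edgeR adjusted p = 0.138). Hmox1 overlapped KI at 89.7 to 185 CPM, with a log2 fold change of -0.01 and a 95% interval of -0.54 to 0.51. Of the 10 members 7 had a positive log2 fold change and 3 a negative one, with a median of 0.34 beside 0.00 over all genes.

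The proximal tubule markers also stood higher in Hif1a KO than in KI, and 5 of the 10 were called. The part of the tubule in the Gclc level was not tested. Cre(-) kidneys, at 6330 to 7030 TPM of the markers, had 118 to 154 TPM of Gclc, and DKO kidneys, at 1140 to 1840 TPM, had 156 to 217 TPM of Gclc, whereas Hif1a KO kidneys at 1010 to 1900 TPM had 414 to 614 TPM.

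**Figure D4:**
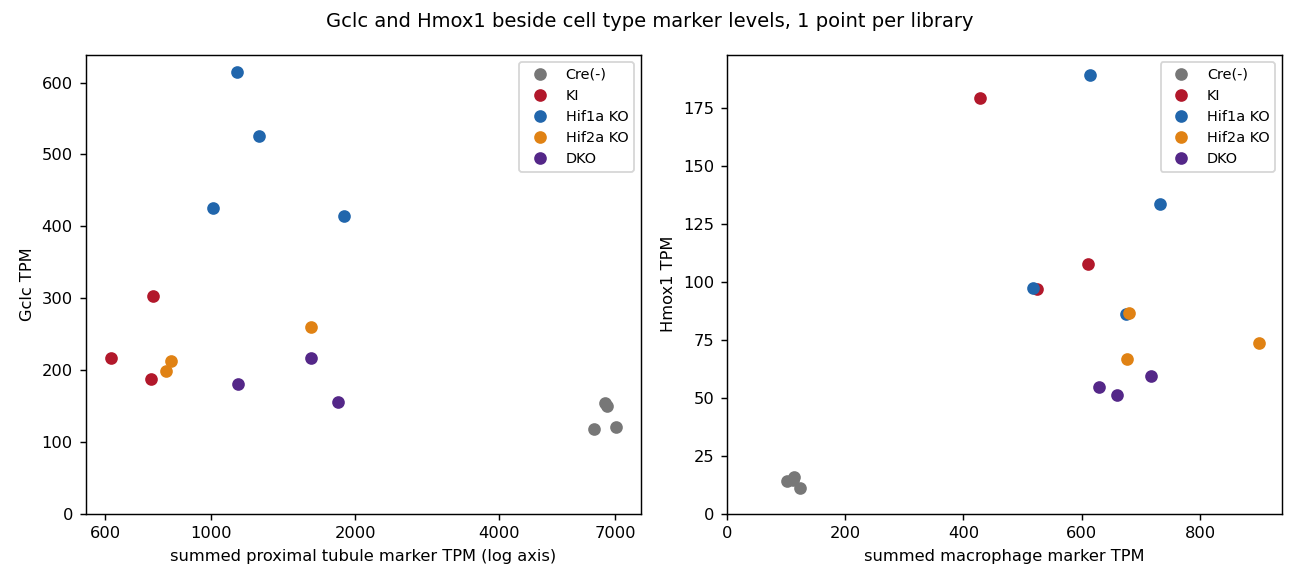
Left, Gclc in TPM against the summed TPM of 10 proximal tubule markers on a log axis; right, Hmox1 in TPM against the summed TPM of 10 macrophage markers; each point is 1 library, coloured by group. Hif1a KO and DKO libraries overlap along the horizontal axis on the left but not in Gclc (414 to 614 against 156 to 217 TPM), and DKO libraries have Hmox1 at 51.2 to 59.5 TPM with macrophage sums of 629 to 717 TPM.

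Loss of Hif2a gave no call among the 10 genes by edgeR, against 0.747% of all genes called higher and 0.653% lower, and 2 members had an unadjusted p below 0.05. These were Hmox1, at 65.9, 68.5 and 80.1 CPM against 92.0 to 188 CPM in KI (log2 fold change -0.83, SE 0.27, edgeR adjusted p = 0.11), and Nfe2l2, at 187 to 204 CPM against 226 to 245 CPM (log2 fold change -0.24, SE 0.08, edgeR adjusted p = 0.133). In these 2 every Hif2a KO library lay below every KI library, as in 10.7% of all genes, and DESeq2 called both lower. Gclc had 576, 411 and 441 CPM, within the KI range, and the 95% interval of its log2 fold change ran from -0.59 to 0.31. The interval of Gclm was -0.22 to 0.22. On library size alone 79.6% of all calls in this comparison were higher, against 53.4% with TMM.

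In the DKO, with both genes floxed, Hmox1 and Nfe2l2 fell below KI and no member was called higher. The 0 higher and 2 lower of 10 compare with 6.53% and 6.19% of all genes. Hmox1 had 55.0, 48.8 and 49.9 CPM, below all KI, Hif1a KO and Hif2a KO libraries and above all Cre(-) libraries. Its log2 fold change from KI was -1.31 (SE 0.27, edgeR adjusted p = 0.00783), and it passed in 6 of 6 fits that left out a library, at -0.93 without KI replicate 3. The macrophage sum in DKO, 629 to 717 TPM, was above that of all 3 KI libraries. Nfe2l2 was at 182, 177 and 192 CPM (log2 fold change -0.35, SE 0.08, edgeR adjusted p = 0.0147), and at -0.24 with an adjusted p of 0.0696 on library size alone, a scale on which the median of all genes shifted by 0.11 and 74.6% rather than 51.3% of calls were higher. Gclc was at 376, 332 and 444 CPM (log2 fold change -0.45, SE 0.21, edgeR adjusted p = 0.177) and Gclm at 188 to 216 CPM, with a 95% interval of -0.22 to 0.21. Slc7a11, Txnrd1 and Srxn1 also had every DKO library below every KI library, with edgeR adjusted p values of 0.233, 0.167 and 0.115, which makes 5 of 10 members against 17.2% of all genes.

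The groups with loss of 1 factor were also compared directly. Gclc was higher in Hif1a KO than in Hif2a KO by a log2 fold change of 1.22 (SE 0.21, edgeR adjusted p = 0.0222), the 1 member called, against 0.329% of all genes called higher and 0.0999% lower. It passed the threshold in 3 of 7 fits that left out a library, with a log2 fold change between 1.10 and 1.38. Hmox1 (log2 fold change 0.82, SE 0.25, edgeR adjusted p = 0.142), Osgin1 (log2 fold change 0.98, SE 0.22, edgeR adjusted p = 0.0703), Gclm (0.42, SE 0.10, adjusted p = 0.0743) and Nqo1 (0.52, SE 0.18, adjusted p = 0.183) did not pass, but had every Hif1a KO library above every Hif2a KO library, as did Gclc, which makes 5 of 10 members against 8.31% of all genes.

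DKO and Hif1a KO differ by the Hif2a alleles, and this comparison was added after the values had been seen. Hmox1, Gclc, Txnrd1 and Srxn1 were lower in DKO and none was higher, against 0.317% of all genes called lower and 0.0882% higher. Gclc fell by 1.53 on the log2 scale (SE 0.21, edgeR adjusted p = 0.00464), or 2.89-fold, and passed in 6 of 7 fits that left out a library, the exception being the fit without DKO replicate 2 (adjusted p = 0.0665). Hmox1 was 2.47-fold lower (SE 0.26 on the log2 scale, adjusted p = 0.0456), Srxn1 fell by 0.73 (SE 0.15, adjusted p = 0.0456), from 98.0 to 124 CPM to 60.2 to 70.8 CPM, and Txnrd1 by 0.53 (SE 0.11, adjusted p = 0.0495), from 161 to 222 CPM to 128 to 151 CPM. Without 1 library Hmox1 and Txnrd1 passed in 1 of 7 fits each and Srxn1 in 0 of 7. On library size alone the calls over all genes were 63.6% higher, against 21.7% with TMM. Nqo1, Gclm and Osgin1 also had every DKO library below every Hif1a KO library, with edgeR adjusted p values of 0.186, 0.0681 and 0.162, which makes 7 of 10 members against 8.54% of all genes. This comparison shares its 4 Hif1a KO libraries with those against KI and Hif2a KO, so the counts are not independent.

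Whether the effect of losing Hif1a differs with the state of Hif2a is the interaction of the 2 losses. No gene passed this test by edgeR, 0% of 17011, while DESeq2 called 31 genes and 1 member, and 1013 genes had an unadjusted p below 0.05. Of the 10 members 5 had an unadjusted p below 0.05, each with a negative interaction: Gclc at -1.39 on the log2 scale (SE 0.29, edgeR adjusted p = 0.277), Srxn1 at -0.76, Txnrd1 at -0.46, Gclm at -0.43 and Slc7a11 at -1.11. The member called by DESeq2 was Gclc. The difference in the response of Gclc to Hif1a loss was thus called by DESeq2 (adjusted p = 0.00593) and not by edgeR.

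**Figure D5:**
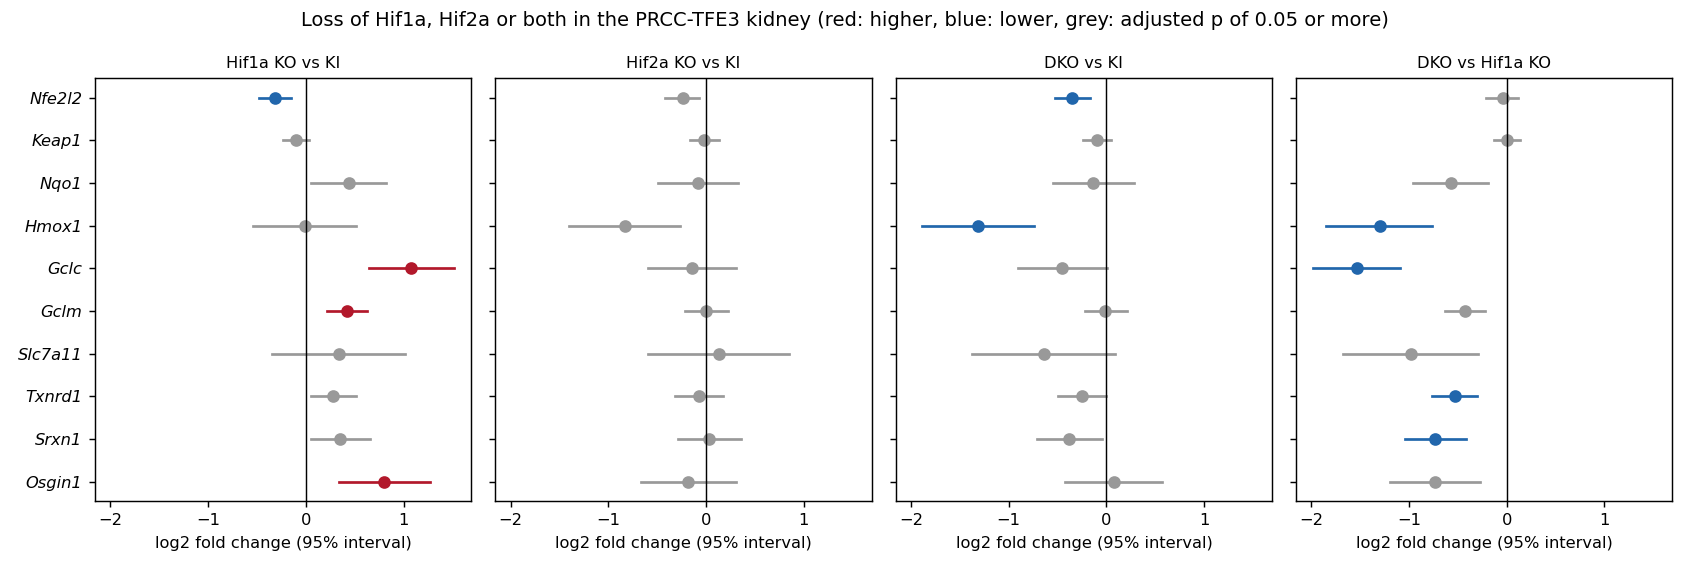
Log2 fold change (horizontal axis, TMM scale) with its 95% interval for each gene in Hif1a KO, Hif2a KO and DKO against KI and in DKO against Hif1a KO; red and blue mark genes called higher and lower, grey those with an adjusted p of 0.05 or more. Gclc lies at 1.08 in the first panel and at -1.53 in the last, and Hmox1 lies at -0.01 after loss of Hif1a and at -1.31 in the DKO.

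Against Cre(-), 7 members were higher and 2 lower in Hif1a KO (31.9% and 30.1% of all genes), 3 higher and 3 lower in Hif2a KO (32% and 29.9%) and 3 higher and 3 lower in DKO (30.4% and 27.9%). These comparisons share the 4 Cre(-) libraries with that of KI. Gclc in Hif1a KO stood 2.68-fold above Cre(-) (log2 fold change 1.42, SE 0.19, edgeR adjusted p = 9.36e-06), and the values for KI, Hif2a KO and DKO were 0.34, 0.20 and -0.11, none of them called. Osgin1 was below Cre(-) in every group, by 1.78 in KI, 0.97 in Hif1a KO, 1.95 in Hif2a KO and 1.70 in DKO on the log2 scale. On library size alone the members were 7 higher and 1 lower in Hif1a KO, 7 and 1 in Hif2a KO, and 4 and 1 in DKO, since that scale raised the median of all genes by 0.36, 0.44 and 0.46.

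Around the 10 genes, 7 lists of pathway genes held 74 names, of which 72 were tested. In KI against Cre(-) 19 were higher and 35 lower on the TMM scale, against 31.6% and 29.3% of all genes. Their median log2 fold change was -0.29 beside 0.03 over all genes. Library size alone gave 30 higher and 25 lower with a median of 0.05. Genes of the KEAP1 ligase and the partners of NRF2 were 6 higher and 1 lower of 10, and 8 higher and 0 lower on library size alone and on log2(TPM + 1). Maff, a small MAF protein, rose from 3.33 to 28.2 CPM on average (log2 fold change 3.08) and Nfe2l3, an NRF2 relative, from 1.54 to 5.49 CPM (1.83). Cul3, the scaffold of the ligase, was lower by TMM at -0.49 but at 0.08 on log2(TPM + 1).

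In the list of glutathione synthesis, reduction and peroxidases 1 of 10 was higher and 6 lower with TMM, 2 higher and 5 lower on library size alone, and 3 higher and 4 lower on log2(TPM + 1). Gpx2, a selenium peroxidase of epithelium, rose from 0.134 CPM, within the 3-count floor, to 1.42 CPM, and Ggt1, the brush-border enzyme that cleaves extracellular glutathione, fell from 806 to 210 CPM (log2 fold change -1.94). Gpx1 fell with it (-1.56). The glutathione S-transferases were 3 higher and 6 lower of 11 tested with TMM and 4 higher and 4 lower on both other scales, with Mgst1 at 1.56 and Mgst2 at 2.01 as the higher examples and Gsta2 at -3.26 and Gsta3, from 113 to 56.5 CPM, as the lower. Ggt1 and the alpha-class transferases are known proximal tubule genes, and the 10 tubule markers fell in the same libraries; the part of the tubule in these falls was not tested.

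The thioredoxin and peroxiredoxin list had 1 higher and 5 lower of 11 with TMM (median -0.25), but 4 higher and 3 lower on library size alone (0.08) and on log2(TPM + 1) (0.12), so its balance reversed with the scale. Prdx6, a peroxiredoxin that also acts on phospholipids, rose from 132 to 1019 CPM, a log2 fold change of 2.95 (SE 0.20, edgeR adjusted p = 1.39e-08). Prdx5 (-1.94) and the mitochondrial Txnrd2 (-1.18) fell. Of 7 genes of NADPH supply, Pgd (1.31) and G6pdx (1.08), the oxidative steps of the pentose phosphate pathway, rose, and 4 fell, led by Idh1 (-1.98) and Me1 (-1.27); the other scales gave 3 higher and 3 lower.

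Genes of haem and iron handling were 3 higher and 3 lower of 7 with TMM, 4 and 2 on library size alone and 5 and 2 on log2(TPM + 1), with the ferritin light chain Ftl1 (1.06) and the haem transporter Slc48a1 (0.72) higher, and Blvra (-1.34), which reduces the biliverdin that haem oxygenase makes, and Fech (-0.67), the last enzyme of haem synthesis, lower. Of 16 detoxification and export genes 3 rose and 10 fell with TMM, and 5 rose and 8 fell on the other scales. Ephx1 rose by 2.27 on the log2 scale. Aldh3a1 had the largest fitted value (3.47) but spread over 1.14 to 23.1 CPM in the KI libraries, overlapping the 0.642 to 1.44 CPM of Cre(-). The exporter Abcc3 (-2.76) and the carbonyl reductase Cbr1 (-2.09) had the largest falls of this list. Of these named genes, Cul3 alone changed sign on library size or TPM scales.

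After loss of Hif1a or of Hif2a, 5.44% and 1.4% of all genes were called against KI, and few of the same 72 were. In Hif1a KO against KI 1 was higher and 2 lower with a median of 0.07: glutathione reductase Gsr rose (0.39, SE 0.11, edgeR adjusted p = 0.0491), and Gstp1 (-0.57, SE 0.14, adjusted p = 0.0297) and Slc48a1 (-0.30, SE 0.08, adjusted p = 0.0391) fell. Gsr was not called with DESeq2 size factors or on the TPM scales, and Slc48a1 was not called on library size alone or on the TPM scales. In Hif2a KO against KI only Prdx6 was called, from 1019 to 459 CPM on average (-1.15, SE 0.21, edgeR adjusted p = 0.0214), a call that was lost on log2(TPM + 0.1). In DKO against KI 13 were lower and 1 higher with a median of -0.16, against 6.19% and 6.53% of all genes. The counts were 8 lower and 3 higher on library size alone, and 6 lower and 2 higher on log2(TPM + 1). Of the 7 haem and iron genes 3 were among the 13: Fth1 (-0.52), Ftl1 (-0.63) and Slc48a1 (-0.49). Of these, 2 were called on library size alone and 0 on the TPM scales. Pgd (-0.69), G6pdx (-0.40) and Prdx6 (-1.58) were also called lower, G6pdx not on library size alone or log2(TPM + 1). The mean level of Prdx6 was below that of KI in every Hif group, at 666 CPM in Hif1a KO, 459 CPM in Hif2a KO and 342 CPM in DKO, with Cre(-) at 132 CPM.

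A mean of at least 1 TPM was reached by 14712 genes, the members included. Apart from the members, those whose log2 CPM followed Nqo1 most closely over the 13 libraries with Cre were Ugt1a10 (Pearson r = 0.924), Cdc37l1 (0.879), Mat2a (0.877), Cbr3 (0.869) and Gcm1 (0.860). These values describe the libraries, which fall into 4 genotypes and share their depth and scaling, and carry no test. Ugt1a10, a glucuronosyltransferase, and Cbr3, a carbonyl reductase, averaged 158 and 10.8 TPM in the libraries with Cre and 6.92 and 3.55 TPM in Cre(-). Cdc37l1 (34.4 TPM with Cre, 41.5 TPM in Cre(-)) and Mat2a (75.1 and 100 TPM) stood the other way, and Gcm1 averaged 4.55 and 4.05 TPM.

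Transcript shares were estimated for each gene. Nqo1 has 1 annotated transcript, and the coding form made up at least 98.2% of Hmox1 and 98.6% of Gclc in every library. Keap1-201 held 5.8% of the Keap1 TPM in Cre(-), 3.6% in KI, 11.3% in Hif1a KO, 18.6% in Hif2a KO and 28.3% in DKO on average. The ranges were wide, at 0.0% to 13.7% in Cre(-), 0.0% to 10.7% in KI, 0.0% to 19.0% in Hif1a KO, 14.7% to 22.9% in Hif2a KO and 7.7% to 40.2% in DKO. Those of Hif1a KO and DKO overlapped that of KI. The share of Gclm-201 in the Gclm TPM was 10.8% to 15.6% in Cre(-) and 5.4% to 6.7% in KI, without overlap, and the Gclm log2 fold change differed more between the TMM and TPM scales than the median of all genes did. Gclm (chromosome 3, 122245557 to 122270732, plus strand) overlaps the same-strand pseudogene Gm6061, which reached 6.93 TPM against 397 TPM for Gclm, so its count may take in a small share of pseudogene reads. Gclc (chromosome 9, 77754535 to 77794485) and Hmox1 (chromosome 8, 75093621 to 75100589) lie on the plus strand. Their exons overlap no exon of another gene in the annotation.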

How the data were processed

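Total RNA of mouse kidneys (TRIzol, RIN above 8) was made into TruSeq Stranded mRNA libraries and sequenced as single reads on a NextSeq 500. Per the labels and the study's methods, reads were trimmed with Trim Galore 0.6.6 (cutadapt 2.5), aligned with STAR 2.7.9a and quantified with RSEM. The methods name a human genome assembly for alignment and a human or mouse annotation, while the files list mouse transcripts. The authors deposited the estimated counts of each transcript, not normalized between libraries, and the TPM of each transcript, normalized for transcript length and library total.

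Here 116770 of 119353 transcripts (97.8%, holding at least 99.04% of each library's counts) were matched to GENCODE M21 (GRCm38) and summed to 35971 genes, and the sums of estimated counts were rounded. The main test was edgeR 4.0.16 in R 4.3.3: filterByExpr with a minimum count of 10, TMM, 1 quasi-likelihood fit of all 17 libraries, Benjamini-Hochberg adjustment over 17011 genes and a threshold of 0.05. DESeq2 1.42.0 and limma 3.58.1, on log2(TPM + 1) and log2(TPM + 0.1), served as alternatives. Floors of 3 counts cover counting error only. On simulated counts for KI against Cre(-) with 17011 genes, edgeR recovered 58.7% of 2-fold and 88.9% of 4-fold changes with 5.1% false calls. The simulation changed a small share of genes, in either direction, and otherwise gave all libraries the same composition. In the real comparison 60.9% of genes were called and the mitochondrial share differed, so these rates do not carry over to it.

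The members and the pathway and marker lists were chosen with earlier results of these data known. From each pathway list the text names up to 2 genes per direction with the largest change in KI against Cre(-), up to 2 called in Hif1a KO or Hif2a KO against KI, and the 5 genes of at least 1 TPM most correlated with Nqo1; pathway genes named for DKO are examples chosen after their values were seen. Mice are the replicates. No 2 libraries were identical. No column of the tables was left unused. Promoter sequences are RefSeq's (GRCm38.p6).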

Additional observations from a re-analysis of the deposited data

How the results depend on the processing

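Gclc in Hif1a KO against KI and Hmox1 in DKO against KI kept their direction under all alternatives run, and Hmox1 kept its call as well. The replicate numbers of the labels did not pair the libraries: over 31 pairs with the same number in different groups, the deviations from the group means correlated at -0.23 to 0.23 (median -0.03), 3 pairs exceeded 0.1, and 5 of 17 libraries correlated best with their own number. With the replicate block, the members called fell from 4 to 1 in Hif1a KO against KI (Gclc, adjusted p = 0.0185) and from 4 to 1 in DKO against Hif1a KO, with 479 and 13 genes called in place of 925 and 69, 76 in place of 238 in Hif2a KO against KI and 19 in place of 73 in Hif1a KO against Hif2a KO.

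The DESeq2 Wald test called 2 members in Hif2a KO against KI in place of 0, 4 in Hif1a KO against Hif2a KO in place of 1, and 1 in the interaction in place of 0; over all genes it called 1665 in Hif1a KO against KI, 1015 in Hif2a KO against KI, 537 in Hif1a KO against Hif2a KO, 418 in DKO against Hif1a KO and 31 in the interaction. A fit of only the groups compared called 0 members in Hif1a KO against KI and 2 in Hif1a KO against Hif2a KO, with 246, 2, 1028, 132 and 164 genes in Hif1a KO, Hif2a KO and DKO against KI, Hif1a KO against Hif2a KO, and DKO against Hif1a KO (main counts 925, 238, 2164, 73 and 69); it holds fewer libraries to estimate the spread. Limma on log2(TPM + 1) called 1 member in DKO against KI and 1 in DKO against Hif1a KO, and 29 genes in Hif1a KO against Hif2a KO. Limma on log2(TPM + 0.1) called 2 members in Hif1a KO against KI, 1 in DKO against KI and 1 in DKO against Hif1a KO, with 552, 83, 27 and 45 genes in Hif1a KO against KI, Hif2a KO against KI, Hif1a KO against Hif2a KO and DKO against Hif1a KO. A minimum log2 fold change of 0.58 left 4 members in Hif1a KO against Cre(-) in place of 9, 2 in Hif1a KO against KI and 1 in DKO against KI, with 6862, 535 and 1426 genes. Library size alone left 1 member in DKO against KI and 2 in DKO against Hif1a KO. This scale and the fit without mitochondrial genes were added after seeing the data.

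Values called on either scale changed sign only against Cre(-). On log2(TPM + 1) Gclm was at 0.09 in KI, 0.48 in Hif1a KO, 0.05 in Hif2a KO and 0.04 in DKO, the same to 2 decimals on log2(TPM + 0.1). In DKO, Gclc was at 0.44 on both TPM scales and Txnrd1 at 0.54 and 0.55. On library size alone Gclm was at 0.12 in Hif1a KO and Txnrd1 at 0.43 in DKO. Those scales moved the median of all genes by 0.35 to 0.55 against Cre(-).

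With each library left out in turn, the members called ranged from 6 to 7 in KI, 7 to 9 in Hif1a KO, 6 in Hif2a KO and 6 in DKO against Cre(-). Against KI they ranged from 1 to 4 in Hif1a KO (1 without KI replicate 2 or Hif1a KO replicate 3), 0 to 1 in Hif2a KO (1 without KI replicate 1) and 1 to 2 in DKO (1 without KI replicate 3 or DKO replicate 2), while all genes called ranged from 273 to 1169, 13 to 857 and 724 to 2291. They ranged from 0 to 2 in Hif1a KO against Hif2a KO and from 0 to 3 in DKO against Hif1a KO, with 1 to 193 and 6 to 35 genes in all, and stayed at 0 in the interaction. Depth limits the coding transcript of Slc7a11 in Cre(-), at 2.4 to 8.7 estimated counts a library.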
